A study of Homo sapiens with 15 samples.

Results

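The 10 transcription factors considered here are ZEB1, ZEB2, SNAI1, SNAI2 and TWIST1, which are known drivers of the epithelial to mesenchymal transition (EMT), and GRHL1, GRHL2, GRHL3, OVOL1 and OVOL2, which are known to hold cells in the epithelial state. Members were taken as the genes of the deposited expression table whose Ensembl identifier maps to one of these symbols. Of the 10, 7 were measured (ZEB1, SNAI1, TWIST1, GRHL1, GRHL2, OVOL1 and OVOL2) among 16604 genes, and ZEB2, SNAI2 and GRHL3 were not analysed here. Expression was measured by polyA-selected RNA sequencing of 15 samples from 5 human ovarian cancer cell lines, with 3 biological replicates per line.

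The parental line is OVCAR4 (Ovcar4Parental), an established line labelled as high-grade serous ovarian cancer and as sensitive to both cisplatin and carboplatin, platinum drugs that crosslink DNA. Ov4Cis was made from OVCAR4 by culture in increasing cisplatin and is labelled cisplatin resistant. Ov4Carbo was made in the same way with carboplatin and is labelled carboplatin resistant. Ov4Carbo4 and Ov4Carbo7, also labelled carboplatin resistant, were each grown from a single cell of Ov4Carbo, so each is 1 clone. All lines were grown in the same medium with serum, and the replicates are cultures of 1 line each, so the tests compare these lines and not drugs in general.

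In EMT, epithelial cells lose cell to cell junctions and polarity and gain motility. ZEB, SNAIL and TWIST family proteins bind E-box sequences, and ZEB and SNAIL proteins repress epithelial genes such as CDH1, which encodes E-cadherin. Grainyhead-like (GRHL) and OVO-like (OVOL) proteins act in the opposite direction: they maintain epithelial genes, and ZEB1 and GRHL2, and ZEB1 and OVOL2, are known to repress each other. In ovarian cancer such states are studied for their link with spread and drug response.

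Values are log2 RPKM (reads scaled to the length of the gene and to the reads of the library, on a log scale) after the authors' normalization, so that 0 is an RPKM of 1 and a negative value is below it. A gene was called between 2 lines at an adjusted p under 0.05 (limma, all 15 samples in 1 fit, Benjamini-Hochberg over all genes) with a log2 difference of at least 1, and "rose" and "fell" are used for called genes only. A difference is given with its standard error (SE). Each sample has the same median over genes, 2.77, and the read depth behind the values is unknown. The numbers in the sample titles form 2 series: Ov4Carbo replicate 1, Ov4Carbo4 and Ov4Carbo7 belong to one, and Ovcar4Parental, Ov4Cis and Ov4Carbo replicates 2 and 3 to the other. The labels do not say what the series are. Ov4Carbo replicate 1 stood apart from the other Ov4Carbo samples, with a root-mean-square difference over all genes of 0.77 and 0.72 from replicates 2 and 3, while replicate pairs within the other 4 lines lay between 0.30 and 0.56. Ov4Carbo replicates 2 and 3 differed by 0.57, also above every pair of those lines. Line identity was checked with 12 markers of serous ovarian lines, of which 11 were measured: the lineage factors PAX8 (line means 5.85 to 6.74), SOX17 (6.65 to 7.76) and MECOM (6.44 to 7.39) were high in every line, and the keratins KRT8 (4.50 to 7.09) and KRT18 (6.32 to 7.53) were present in every line. WT1 was below 0 in every line. In Ov4Cis 5 of the 11 were below 0: WT1, MUC16 (-1.73, against 4.60 in the parental line), KRT7 (-0.57 against 8.28), MSLN (-2.29 against 1.89) and FOLR1 (-1.06 against 2.18), and EPCAM was at 1.17 against 5.98. FOLR1 was also below 0 in Ov4Carbo4 (-0.76) and MUC16 in Ov4Carbo7 (-0.21).

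Against the parental line, the mesenchymal side of the set went up in 1 or 2 genes and the epithelial side went down in 2 to 4. In Ov4Cis, ZEB1 and TWIST1 rose and GRHL1, GRHL2, OVOL1 and OVOL2 fell, so that 6 of 7 members were called where 15.9% of all genes were (8.46% higher and 7.41% lower). The same 6 members were called in the same directions in Ov4Carbo7, with 17.0% of all genes called (9.26% higher, 7.75% lower). In Ov4Carbo, 5 of 7 were called (12.7% of all genes, 5.76% higher and 6.93% lower): TWIST1 rose and the 4 epithelial factors fell. In Ov4Carbo4, 3 of 7 were called (15.1% of all genes, 7.43% higher and 7.7% lower): TWIST1 rose, and GRHL2 and OVOL1 fell. These 4 comparisons share the parental samples, so their likeness to each other is not separate evidence. The members were chosen with earlier results of these data known, so the counts are a description. Ov4Carbo4 and Ov4Carbo7 are in a different title series from the parental line. There, line and series can be told apart only through the Ov4Carbo samples. With the title series as a term, ZEB1 in Ov4Carbo7 (0.78) and GRHL2 in Ov4Carbo4 (-0.43) were not called.

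**Figure D1:**
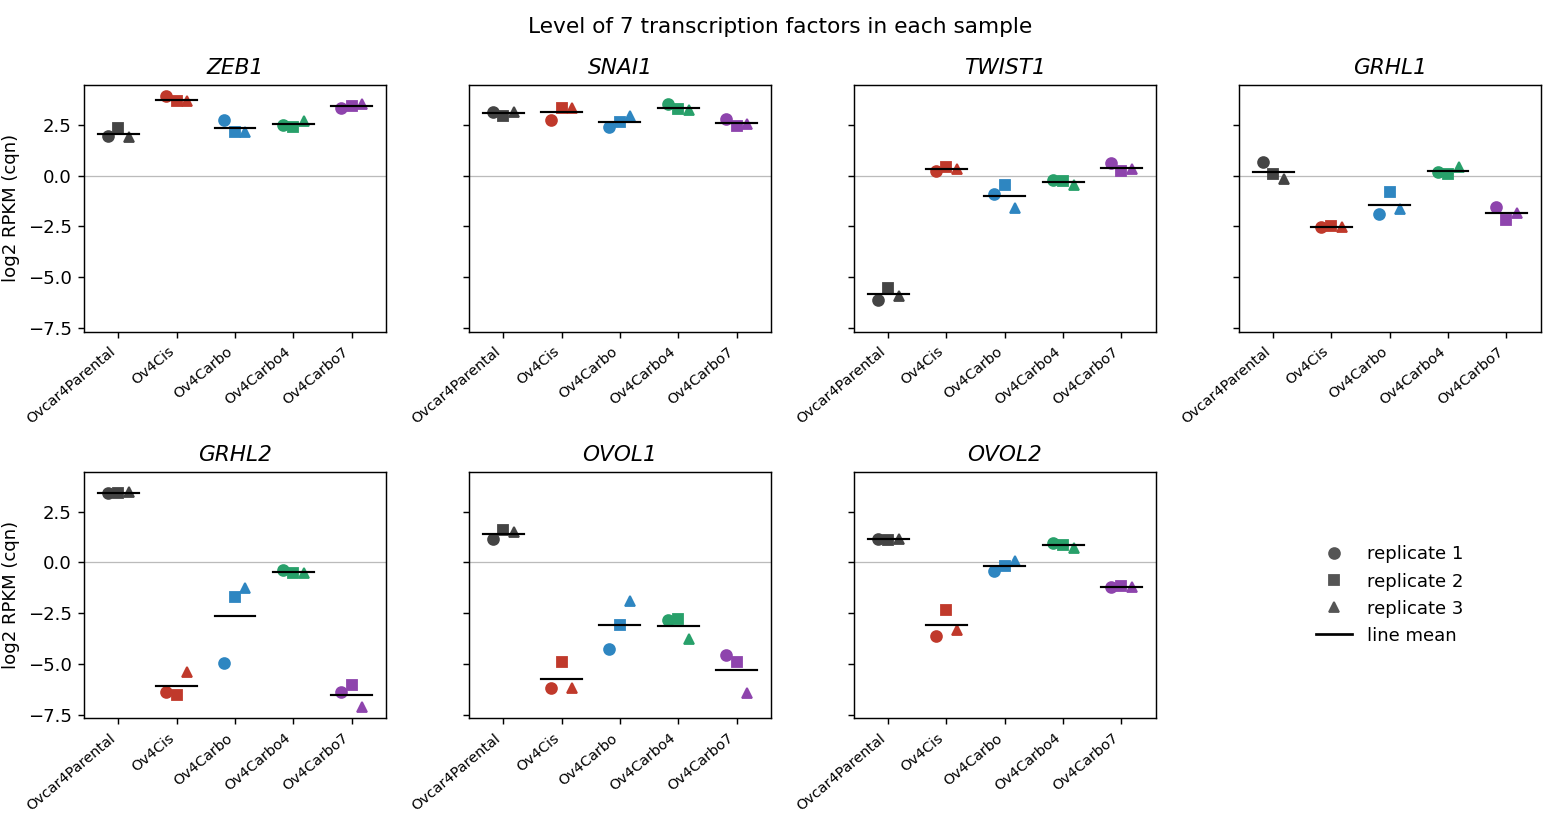
Each panel plots 1 transcription factor, with log2 RPKM on the vertical axis, the 5 lines on the horizontal axis, 1 symbol per replicate and a bar at the line mean. GRHL2 and OVOL1 sit above 0 in the 3 parental samples and below 0 in the other 12, TWIST1 sits below -5 in the parental samples and above -2 in all others, and the 3 Ov4Carbo samples spread widely for GRHL2, from -4.95 to -1.28.

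ZEB1, a zinc-finger homeobox repressor (ENSG00000148516, chromosome 10), was measured at 1.95, 2.37 and 1.90 in the 3 parental samples (mean 2.07 ± 0.26 SD, n = 3). In Ov4Cis it stood at 3.92, 3.66 and 3.69 (3.75 ± 0.14), and in Ov4Carbo7 at 3.34, 3.42 and 3.51 (3.42 ± 0.09). All 6 of these samples lay above every parental sample, and above every Ov4Carbo and Ov4Carbo4 sample as well. ZEB1 rose by 1.68 (SE 0.17, adjusted p = 7.56e-06) in Ov4Cis, a 3.20-fold difference in RPKM, and by 1.35 (SE 0.17, adjusted p = 4.65e-05) in Ov4Carbo7. Ov4Carbo was at 2.73, 2.15 and 2.17, which overlaps the parental values (difference 0.28, adjusted p = 0.228). Ov4Carbo4 was at 2.52, 2.39 and 2.70, just above the parental samples but by less than the fold limit (0.46, adjusted p = 0.0471). In order of level, Ov4Cis and Ov4Carbo7 did not pass the threshold against each other (0.33, adjusted p = 0.143), Ov4Carbo7 lay above Ov4Carbo4 by 0.89 (adjusted p = 0.000807), and neither Ov4Carbo4 and Ov4Carbo nor Ov4Carbo and the parental line differed past the threshold. With the title series as a term in the fit, the ZEB1 difference of Ov4Carbo7 from the parental line was 0.78 (adjusted p = 0.0348), under the fold limit, while that of Ov4Cis, which shares its series with the parental line, stayed at 1.68.

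The gene ZEB1-AS1 overlaps ZEB1 on the opposite strand and is measured in the same table. Its line means were -0.50 in the parental line, 0.67 in Ov4Cis, 0.25 in Ov4Carbo7, 0.92 in Ov4Carbo and 0.68 in Ov4Carbo4. Its order across lines was not that of ZEB1: the highest ZEB1-AS1 mean was in Ov4Carbo, where ZEB1 was near its parental level. Whether reads were counted by strand is not given in the sources used here, so reads from ZEB1 and its antisense partner cannot be told apart where they overlap. Antisense genes are also annotated over TWIST1, GRHL2 and OVOL1 (GENCODE v29), and the same holds for them.

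SNAI1, the zinc-finger factor SNAIL (ENSG00000124216, chromosome 20), was the one member not called in any of the 4 comparisons with the parental line. Parental samples gave 3.13, 2.96 and 3.15 (3.08 ± 0.10), Ov4Cis 2.73, 3.35 and 3.33 (3.14 ± 0.35), and Ov4Carbo 2.41, 2.64 and 2.95 (2.66 ± 0.27). Ov4Carbo4 gave 3.53, 3.30 and 3.24 (3.36 ± 0.15) and Ov4Carbo7 2.77, 2.44 and 2.56 (2.59 ± 0.16). The whole span of its line means was 0.77, between Ov4Carbo4 and Ov4Carbo7, where the adjusted p was 0.0033 but the difference was under the fold limit. Ov4Carbo7 and Ov4Carbo lay -0.50 (adjusted p = 0.0422) and -0.42 (0.0906) from the parental line, and Ov4Carbo4 and Ov4Cis 0.28 (0.251) and 0.05 (0.86), each with an SE of 0.18. In linear units SNAI1 was at 6.04 to 10.3 RPKM in line mean. A processed pseudogene of SNAI1 is known, and reads that fit both copies cannot be assigned to one of them.

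TWIST1, a basic helix-loop-helix factor (ENSG00000122691, chromosome 7), was close to the bottom of the table in the parental line, at -6.11, -5.51 and -5.94, where 0.717% of genes had a lower line mean. Ov4Cis had 0.22, 0.42 and 0.34, and Ov4Carbo7 had 0.63, 0.21 and 0.32. Somewhat lower were Ov4Carbo4, with -0.23, -0.28 and -0.48, and Ov4Carbo, with -0.90, -0.45 and -1.58. Every derived sample was above every parental sample. The greatest rises were those of Ov4Carbo7 (6.24, adjusted p = 1.14e-08) and Ov4Cis (6.18, 2.25e-09), followed by Ov4Carbo4 (5.52, 1.57e-08) and Ov4Carbo (4.88, 7.03e-08), each with an SE of 0.24. In linear units this is a step from 0.0176 RPKM to between 0.534 and 1.32 RPKM, which leaves TWIST1 low in all 5 lines: at most 21.0% of genes had a lower line mean in any of them. On a log2(RPKM + 1) scale, which compresses values under 1 RPKM, the same differences were 1.15, 0.58, 0.82 and 1.18, so those of Ov4Carbo and Ov4Carbo4 fell under the fold limit there. Its paralogue TWIST2 had parental values of -2.19, -0.59 and -0.85 and was called higher in Ov4Carbo (1.08), Ov4Carbo4 (1.27) and Ov4Carbo7 (1.07), also at levels near or below 1 RPKM.

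GRHL2, a grainyhead-like activator of junction genes (ENSG00000083307, chromosome 8), showed the widest range of the 7 members. Its parental values were 3.41, 3.42 and 3.45 (3.43 ± 0.02), or 10.8 RPKM. Ov4Cis gave -6.37, -6.52 and -5.38 (-6.09 ± 0.62) and Ov4Carbo7 gave -6.37, -6.05 and -7.13 (-6.52 ± 0.56), so that 0.223% and 0.181% of genes were lower in those lines. Ov4Carbo4 lay between, at -0.37, -0.51 and -0.53 (-0.47 ± 0.09), with its 3 samples close together. Ov4Carbo did not give 1 level: replicate 1 was at -4.95 and replicates 2 and 3 at -1.68 and -1.28 (-2.64 ± 2.01). No derived sample overlapped the parental ones. GRHL2 fell by 9.95 in Ov4Carbo7 (adjusted p = 6.93e-07) and fell by 9.52 in Ov4Cis (6.3e-07). GRHL2 fell by less in the other 2 lines, where it fell by 6.07 in Ov4Carbo (5.94e-05) and fell by 3.90 in Ov4Carbo4 (0.00101), each with an SE of 0.72. As log2(RPKM + 1) the 4 lines gave -3.54 (Ov4Carbo7), -3.53 (Ov4Cis), -3.25 (Ov4Carbo) and -2.77 (Ov4Carbo4), all still called. Without Ov4Carbo replicate 1 the change in Ov4Carbo was -4.91 (adjusted p = 2.21e-06). With the title series as a term, the change in Ov4Carbo4 was -0.43 (adjusted p = 0.595) and that in Ov4Carbo7 was -6.48 (4e-05); the term is set by the single gap between Ov4Carbo replicate 1 and the other Ov4Carbo samples.

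GRHL1, a second member of that family (ENSG00000134317, chromosome 2), was near 1 RPKM in the parental line, at 0.68, 0.10 and -0.18. Its Ov4Carbo4 values, 0.18, 0.07 and 0.41, overlapped these, with a difference of 0.02 (SE 0.27, adjusted p = 0.965). It was lower in Ov4Cis (-2.53, -2.46 and -2.53), in Ov4Carbo (-1.91, -0.80 and -1.66) and in Ov4Carbo7 (-1.56, -2.17 and -1.82), with no overlap with the parental samples. GRHL1 fell by 2.71 in Ov4Cis (adjusted p = 8.1e-06), by 1.66 in Ov4Carbo (0.000688) and by 2.05 in Ov4Carbo7 (7.94e-05). So the 2 GRHL genes differed in Ov4Carbo4, where GRHL2 was called and GRHL1 was not; the difference between the genes was not tested. On the log2(RPKM + 1) scale no GRHL1 change reached the fold limit (-0.88, -0.65, 0.00 and -0.76 in Ov4Cis, Ov4Carbo, Ov4Carbo4 and Ov4Carbo7).

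OVOL1, a zinc-finger repressor of mesenchymal genes (ENSG00000172818, chromosome 11), was at 1.18, 1.60 and 1.48 in the parental line (1.42 ± 0.22, or 2.70 RPKM). Ov4Cis had -6.17, -4.92 and -6.17, and Ov4Carbo7 had -4.58, -4.92 and -6.45. Both other lines were less low, with -4.27, -3.10 and -1.92 for Ov4Carbo and -2.82, -2.79 and -3.78 for Ov4Carbo4. All 12 derived samples lay below the parental ones by more than 3 log2 units. OVOL1 fell by 7.17 in Ov4Cis (adjusted p = 1.48e-06) and by 6.73 in Ov4Carbo7 (3.16e-06). It fell by 4.55 in Ov4Carbo4 (8.2e-05) and by 4.52 in Ov4Carbo (0.000134), each with an SE of 0.60. In RPKM the derived lines were at 0.0203 to 0.144, and as log2(RPKM + 1) the changes ran from -1.85 to -1.69, all called. Ov4Carbo and Ov4Carbo4 had nearly the same mean (difference 0.03, adjusted p = 0.97), although Ov4Carbo again spread over its 3 samples. With the title series as a term, the change in Ov4Carbo4 was -2.79 (adjusted p = 0.0445).

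OVOL2, the paralogue with a known repressive action on ZEB1 (ENSG00000125850, chromosome 20), was at 1.14, 1.13 and 1.14 in the parental line. Its order ran from Ov4Carbo4 (0.97, 0.84 and 0.70) through Ov4Carbo (-0.40, -0.18 and 0.07) and Ov4Carbo7 (-1.21, -1.15 and -1.21) to Ov4Cis (-3.62, -2.32 and -3.33). No 2 neighbouring lines in this order overlapped, and each step from Ov4Carbo4 down passed the test. OVOL2 fell by 4.23 in Ov4Cis (adjusted p = 8.5e-08), by 1.30 in Ov4Carbo (0.00186) and by 2.32 in Ov4Carbo7 (1.39e-05), each with an SE of 0.25. In Ov4Carbo4 the difference from the parental line was -0.30 (adjusted p = 0.375). On the log2(RPKM + 1) scale the change in Ov4Carbo was -0.76, under the fold limit, while those in Ov4Cis (-1.51) and Ov4Carbo7 (-1.15) were still called. SNX5 and MGME1, which overlap OVOL2 in the annotation, stayed between 3.60 and 4.02 and between 2.88 and 3.49 in line mean.

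**Figure D2:**
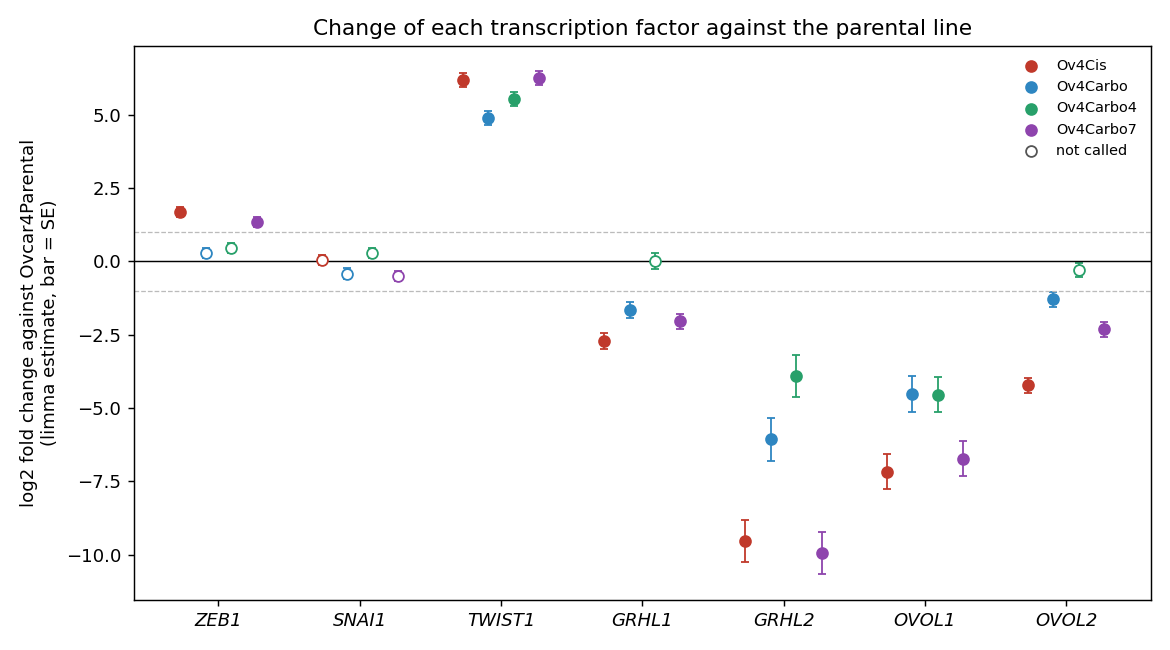
The plot gives, for each of the 7 factors on the horizontal axis, the log2 fold change of the 4 derived lines against Ovcar4Parental, with bars of 1 SE, filled points where called and open points where not. TWIST1 lies between 4.88 and 6.24 in all 4 lines, SNAI1 between -0.50 and 0.28, and GRHL2 between -9.95 and -3.90.

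The 2 populations selected with different drugs were then set against each other. Ov4Cis differed from Ov4Carbo in 6 of 7 members, with 13.8% of all genes called (7.88% higher in Ov4Cis, 5.9% lower). ZEB1 was higher in Ov4Cis by 1.40 (adjusted p = 5.19e-05) and TWIST1 by 1.31 (0.00129). Of the epithelial factors, GRHL1 was lower by 1.05 (-1.05, adjusted p = 0.0111), GRHL2 by 3.45 (-3.45, 0.00292), OVOL1 by 2.66 (-2.66, 0.00473) and OVOL2 by 2.92 (-2.92, 2.99e-06). The GRHL1 call was lost without Ov4Carbo replicate 2 (-0.72, adjusted p = 0.0371). Apart from ZEB1 these are differences between levels near or below 1 RPKM, and on the log2(RPKM + 1) scale ZEB1 was the 1 member called. With only the samples of these 2 lines in the fit, GRHL1 (adjusted p = 0.0539) and GRHL2 (adjusted p = 0.0565) missed the threshold.

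Against its source population, Ov4Carbo4 was higher in 3 of 7 members, with 14.2% of all genes called (7.58% higher, 6.64% lower): GRHL1 by 1.68 (adjusted p = 0.000491), GRHL2 by 2.17 (0.029) and OVOL2 by 1.01 (0.00698). The GRHL2 difference was 1.01 (adjusted p = 0.0294) without Ov4Carbo replicate 1, and it was no longer called when any 1 Ov4Carbo4 sample was left out (adjusted p 0.0636 to 0.0718) or with only these 2 lines in the fit (0.129). The OVOL2 difference was 0.89 without Ov4Carbo replicate 1, 0.94 without Ov4Carbo4 replicate 1 and 0.97 after a further quantile normalization, all under the fold limit. Against the same source, Ov4Carbo7 had 5 of 7 members called, with 13.3% of all genes called (7.72% higher, 5.62% lower). ZEB1 was higher by 1.07 (adjusted p = 0.000452) and TWIST1 by 1.37 (0.000966). GRHL2 was lower, at -3.88 (0.00133), as were OVOL1, at -2.22 (0.0121), and OVOL2, at -1.02 (0.00725). ZEB1 was under the fold limit without Ov4Carbo replicate 2 (0.97) or replicate 3 (0.98), OVOL1 was not called without Ov4Carbo7 replicate 3 (-1.65, adjusted p = 0.0577) or with only these 2 lines in the fit (adjusted p = 0.0723), and OVOL2 was -0.90 without Ov4Carbo replicate 3. With the title series as a term, ZEB1 (0.70), OVOL1 (-1.04) and OVOL2 (-0.79) were not called between Ov4Carbo7 and Ov4Carbo, and GRHL2 was -1.57 (adjusted p = 0.0265). The same term took the GRHL2 difference of Ov4Carbo4 from Ov4Carbo to 4.48 (adjusted p = 3.62e-05). Without the term, GRHL2 and OVOL2 were the members called in both single-cell lines, in opposite directions. TWIST1 and ZEB1 lay above Ov4Carbo in both, in Ov4Carbo4 by 0.65 (adjusted p = 0.0467) and 0.18 (0.407), under the fold limit. OVOL1 differed by -0.03 in Ov4Carbo4 and GRHL1 by -0.39 in Ov4Carbo7, neither called. On the log2(RPKM + 1) scale 0 of 7 members were called in either single-cell line against Ov4Carbo.

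The direct comparison of the 2 single-cell lines, which belong to the same title series, called 4 of 7 members, with 20.9% of all genes called (11.1% higher in Ov4Carbo7, 9.86% lower). All 4 epithelial factors were lower in Ov4Carbo7 than in Ov4Carbo4, with GRHL1 at -2.07 (adjusted p = 5.44e-05), GRHL2 at -6.05 (2.32e-05), OVOL1 at -2.18 (0.00864) and OVOL2 at -2.03 (3.11e-05). The 3 EMT factors differed by less than the fold limit: ZEB1 by 0.89, TWIST1 by 0.72 (adjusted p = 0.0251) and SNAI1 by -0.77. These 4 epithelial differences were called without each of the 15 samples in turn. On the log2(RPKM + 1) scale they were -0.76, -0.77, -0.12 and -0.95, none of which reached the fold limit, since Ov4Carbo4 itself held only 0.724 RPKM of GRHL2, 1.17 of GRHL1, 0.12 of OVOL1 and 1.79 of OVOL2.

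Ov4Cis and Ov4Carbo7, which came from different drugs and different title series, differed in 1 of 7 members, with 14.7% of all genes called (7.46% higher in Ov4Cis, 7.2% lower). OVOL2 was lower in Ov4Cis (-1.90, adjusted p = 8.89e-05), and the other 6 members lay within 0.66 of each other in line mean. GRHL2 and OVOL1 were near the bottom of the table in both lines, where a difference is hard to see. The shares of genes with a lower line mean were 0.223% and 0.397% in Ov4Cis, and 0.181% and 0.819% in Ov4Carbo7. With the title series as a term 3 members were called, among them GRHL2 at -3.04 (adjusted p = 0.00305), whose difference was 0.43 without the term. Against Ov4Carbo4, Ov4Cis differed in 5 of 7 members (16.8% of all genes, 9.12% higher and 7.72% lower): ZEB1 was higher by 1.22 (0.000101), and GRHL1 (-2.73), GRHL2 (-5.62), OVOL1 (-2.62) and OVOL2 (-3.93) were lower. With the title series as a term, GRHL2 was at -9.09 and OVOL1 at -4.39 in that comparison.

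The Ov4Carbo replicates fell on different sides of the 2 lines grown from that population. Over the 7 members, Ov4Carbo replicate 1 had a root-mean-square difference of 2.03 from the Ov4Carbo4 mean and 0.95 from the Ov4Carbo7 mean. Replicate 2 had 0.78 and 2.16, and replicate 3 had 1.08 and 2.57, nearer to Ov4Carbo4. Over all genes the same distances were 1.05 and 0.86 for replicate 1, 1.05 and 1.11 for replicate 2, and 0.99 and 1.05 for replicate 3, so the order was the same and the gap much smaller. The distance over members is not scaled by gene and rests largely on GRHL2, at -4.95, -1.68 and -1.28 in replicates 1, 2 and 3. The GRHL2 mean was -0.47 in Ov4Carbo4 and -6.52 in Ov4Carbo7. In replicate 1, ZEB1 and TWIST1 were nearer to Ov4Carbo4 and the other members to Ov4Carbo7. In replicate 3, SNAI1 and GRHL1 were nearer to Ov4Carbo7 and the other members to Ov4Carbo4. Replicate 1 shares its title series with both single-cell lines, and the part of the series in its values cannot be told apart from the replicate itself. In a bulk sample of a mixed population, fewer cells with a transcript and less transcript per cell cannot be told apart.

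The level of ZEB1 relative to each epithelial factor sums up these orders within each sample. ZEB1 minus GRHL2 (log2 units) was -1.46, -1.05 and -1.55 in the parental samples, so GRHL2 exceeded ZEB1 there and in no other line. The difference was 2.88, 2.89 and 3.23 in Ov4Carbo4, 7.68, 3.84 and 3.45 in Ov4Carbo, 9.71, 9.47 and 10.64 in Ov4Carbo7, and 10.29, 10.18 and 9.07 in Ov4Cis. ZEB1 minus OVOL2 ran from 0.77 to 1.24 in the parental line, 1.54 to 2.00 in Ov4Carbo4, 2.10 to 3.12 in Ov4Carbo, 4.55 to 4.72 in Ov4Carbo7 and 5.98 to 7.54 in Ov4Cis, with no overlap between lines. Most of the span in both came from GRHL2 and OVOL2, whose line means ranged over 9.95 and 4.23 against 1.68 for ZEB1.

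**Figure D3:**
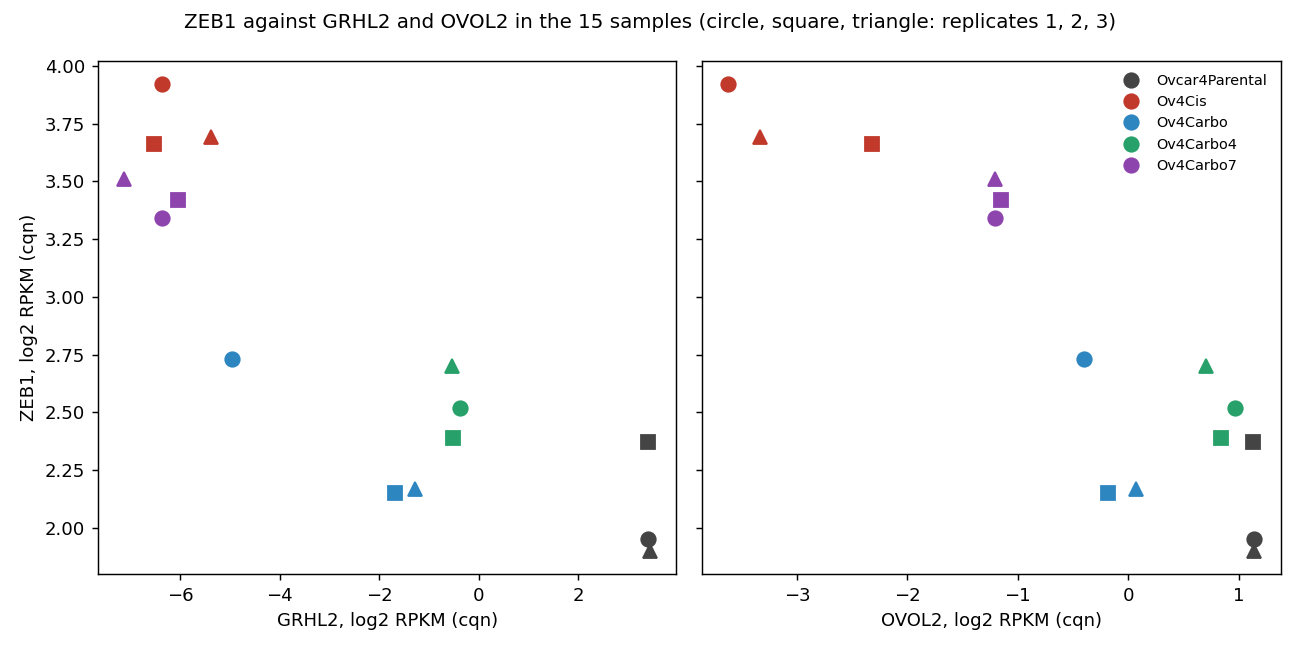
ZEB1 (vertical axis, log2 RPKM) is plotted against GRHL2 and OVOL2 (horizontal axes, log2 RPKM), 1 symbol per sample, coloured by line. Ov4Cis and Ov4Carbo7 hold the 6 highest ZEB1 values and, with Ov4Carbo replicate 1, the lowest GRHL2 values, while for OVOL2 the 2 lines separate.

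Genes with profiles most like a member were sought over the 15 samples among 13272 genes, as the smallest root-mean-square difference between profiles centred on their own mean. Members qualified with a span of line means of at least 2 and a highest line mean of at least 1, which left GRHL2, OVOL1 and OVOL2. SMIM22 (1.17), ATP2C2 (1.21) and C1orf210 (1.26) were nearest to GRHL2. CDH3 (0.82), which encodes P-cadherin, SMIM22 (0.85) and ATP2C2 (0.89) were nearest to OVOL1, so that GRHL2 and OVOL1 had SMIM22 and ATP2C2 as near genes in common. For OVOL2 the nearest were CDC42BPG (0.31), LSR (0.43), which encodes a protein of tricellular junctions, and ARHGEF16 (0.44). These genes were picked for likeness to a member over the same samples, so their order of lines follows from that choice. CDC42BPG had means of 2.78 in the parental line, 2.18 in Ov4Carbo4, 1.39 in Ov4Carbo, -0.04 in Ov4Carbo7 and -1.33 in Ov4Cis. In the same order of lines, LSR was at 5.03, 5.31, 4.41, 3.83 and 0.93, and ARHGEF16 at 1.61, 1.86, 1.22, 0.21 and -1.69. ATP2C2, near GRHL2 and OVOL1, stood at 2.46, -1.65, -2.25, -5.05 and -5.57.

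Known targets of these factors were examined as a list of 34 epithelial genes that ZEB or SNAIL proteins repress or that GRHL or OVOL proteins maintain, all 34 of which were measured. In Ov4Cis all 34 fell, with a median change of -5.01, against 7.41% of all genes called lower and a median over all genes of 0.02 to 0.07 in the 4 comparisons. In Ov4Carbo7 27 fell (median -2.23, 7.75% of all genes lower), in Ov4Carbo 17 fell (median -1.02, 6.93%), and in Ov4Carbo4 16 fell (median -0.99, 7.7%). None of the 34 rose in any of the 4 lines. Of the 34, 11 fell in all 4 lines, 9 in 3, 9 in 2 and 5 in 1. This list, like those below, was chosen with earlier results of these data known. Its counts beside the shares over all genes are therefore a description. The list is named for the pathway, and which factor acts on which of these genes here was not tested.

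CDH1 was at 4.90, 4.66 and 4.33 in the parental line and at -3.00, -4.06 and -3.49 in Ov4Cis, a fall by 8.14 (adjusted p = 2.25e-09). It fell by 1.75 in Ov4Carbo, 1.01 in Ov4Carbo4 (adjusted p = 0.0234) and 2.82 in Ov4Carbo7. On the log2(RPKM + 1) scale the CDH1 difference in Ov4Carbo4 was -0.95, under the fold limit. The splicing regulator ESRP1 was at 5.48, 5.05 and 4.81 in the parental line and fell by 9.40, 2.16, 1.72 and 5.79 in Ov4Cis, Ov4Carbo, Ov4Carbo4 and Ov4Carbo7. Its paralogue ESRP2 fell by 4.46 in Ov4Cis, and its differences of -0.68, -0.75 and -0.75 in Ov4Carbo, Ov4Carbo4 and Ov4Carbo7 were not called. The adhesion gene EPCAM fell by 4.81 in Ov4Cis and fell by 2.97 in Ov4Carbo7, and differed by -0.66 in Ov4Carbo and -0.75 in Ov4Carbo4. RAB25, a small GTPase of epithelial recycling, fell in every derived line, with changes of -6.92 in Ov4Carbo, -7.13 in Ov4Carbo4, -8.30 in Ov4Carbo7 and -8.59 in Ov4Cis. The keratin KRT7 fell by 8.85 in Ov4Cis, from 8.28 to -0.57, and also fell in Ov4Carbo, Ov4Carbo4 and Ov4Carbo7 (-2.21, -2.64 and -2.80). MAL2, which acts in apical transport, fell by 6.18 in Ov4Cis and 2.74 in Ov4Carbo4, and differed by -0.54 in Ov4Carbo and -0.57 in Ov4Carbo7.

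**Figure D4:**
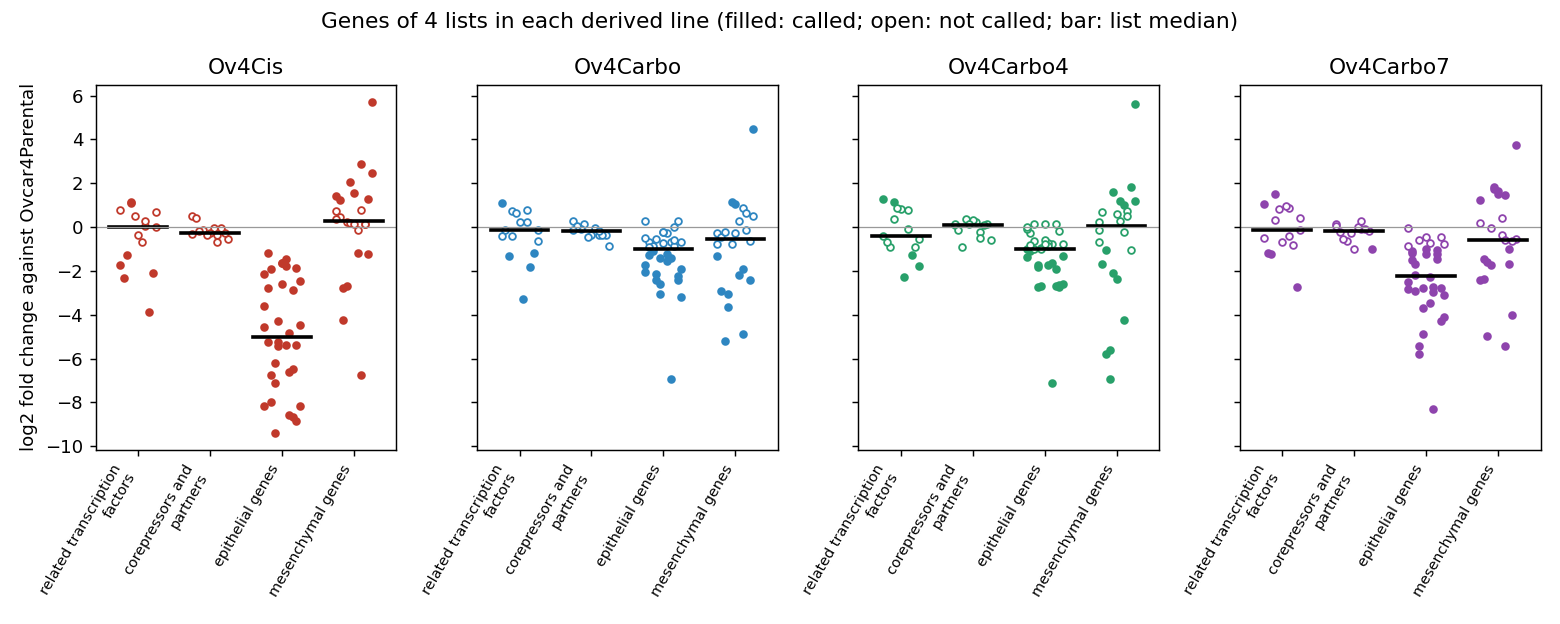
Each panel plots 1 derived line against Ovcar4Parental, with the log2 fold change of every gene of 4 lists as points (filled where called) and a bar at the list median. The epithelial genes have a median of -5.01 in Ov4Cis, -2.23 in Ov4Carbo7, -1.02 in Ov4Carbo and -0.99 in Ov4Carbo4, while the corepressors lie between -1.01 and 0.53 and the mesenchymal genes spread to both sides.

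The sequence upstream of these genes was searched because ZEB and SNAIL proteins are known to bind the E-box CACCTG. The search covered the 250 bases before each start in RefSeq (GRCh38.p14, a different build from that of the authors' alignment), on both strands, so CACCTG also counts as CAGGTG. It also took in AACCNGTT, a grainyhead motif, and CCGTTA, an OVO motif. Matches of these 2 motifs can overlap each other, but AACCNGTT was found in no window of the members or the list below. Of 35116 windows, 17.5% held CACCTG, 0.464% held it 3 or more times, 1.49% held AACCNGTT and 2.45% held CCGTTA. Windows were present for 16 of the 34 epithelial genes (21 windows, since a gene can have several starts), and 13 of the 21 (61.9%) held CACCTG, 4 of them 3 or more times. The list holds genes chosen as targets of E-box repressors, so this share is a description. None of the 21 held AACCNGTT and 1 held CCGTTA. Of the measured members, windows were present for ZEB1 (7) and GRHL1 (1), where 2 ZEB1 windows held CACCTG, 1 held CCGTTA and the GRHL1 window held none of the motifs. A match says that the letters are present and is not evidence of binding.

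Most windows of the members and listed genes overlap annotated exons (GENCODE v29), and only stretches outside exons are printed. Windows with little such sequence, such as those of CRB3 and CLDN7 with more matches, are not printed. Among the rest, MYO5B and AP1M2 were taken because each holds CACCTG 3 times. RAB25 was taken as among the genes with the greatest falls in 3 lines, and GRHL1 as the member with a single window. The AP1M2 stretch is 247 bases long, and those of MYO5B, RAB25 and GRHL1 are whole windows. Each reads 5′ to 3′ on the strand of the gene, with CACCTG or CAGGTG in capitals.
MYO5B, chr18:50195148-50195397, minus strand: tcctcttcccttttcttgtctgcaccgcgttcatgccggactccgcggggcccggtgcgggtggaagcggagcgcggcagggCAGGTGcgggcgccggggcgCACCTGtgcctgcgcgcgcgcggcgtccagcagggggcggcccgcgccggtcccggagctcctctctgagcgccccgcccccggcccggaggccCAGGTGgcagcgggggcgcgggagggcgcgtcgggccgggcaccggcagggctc
AP1M2, chr19:10587316-10587562, minus strand: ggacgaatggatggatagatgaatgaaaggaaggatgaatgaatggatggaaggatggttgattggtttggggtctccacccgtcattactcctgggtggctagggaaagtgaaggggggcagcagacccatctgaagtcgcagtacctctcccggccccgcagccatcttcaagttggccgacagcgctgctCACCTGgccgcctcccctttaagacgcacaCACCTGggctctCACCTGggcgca
RAB25, chr1:156060910-156061159, plus strand: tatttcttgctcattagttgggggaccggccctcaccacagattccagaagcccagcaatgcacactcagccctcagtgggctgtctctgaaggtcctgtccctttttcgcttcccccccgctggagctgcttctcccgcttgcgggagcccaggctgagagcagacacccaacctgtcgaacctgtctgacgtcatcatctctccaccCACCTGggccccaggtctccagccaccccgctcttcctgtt
GRHL1, chr2:9951443-9951692, plus strand: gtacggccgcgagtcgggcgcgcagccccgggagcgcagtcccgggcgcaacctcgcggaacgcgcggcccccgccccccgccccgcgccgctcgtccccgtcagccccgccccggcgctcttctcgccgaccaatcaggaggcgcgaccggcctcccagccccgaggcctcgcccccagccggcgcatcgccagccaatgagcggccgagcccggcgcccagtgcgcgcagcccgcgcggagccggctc
MYO5B, a myosin motor of apical recycling, had line means of 1.18 in the parental line, -0.71 in Ov4Cis, -0.48 in Ov4Carbo7, 0.32 in Ov4Carbo and 1.34 in Ov4Carbo4. AP1M2, an epithelial subunit of the AP-1 clathrin adaptor, was at 6.05 in the parental line, 4.59 in Ov4Cis, 5.31 in Ov4Carbo7, 4.84 in Ov4Carbo and 4.31 in Ov4Carbo4. The windows with the most matches belonged to CRB3 (5), which encodes a polarity protein, and CLDN7 (4), which encodes a tight junction claudin. Both of these windows overlap annotated exons, and the window of another CLDN7 start held no CACCTG. CRB3 had line means of 3.77 in the parental line, 3.48 in Ov4Carbo4, 3.09 in Ov4Carbo, 2.58 in Ov4Carbo7 and -1.45 in Ov4Cis. CLDN7 was at 5.28, 2.56, 2.87, 0.99 and -0.08 in the same lines. Whether the number of matches goes with the levels was not tested.

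Mesenchymal genes did not move as 1 group. Of 26 listed, 24 were measured, and 8 rose and 6 fell in Ov4Cis (median 0.29), 3 rose and 9 fell in Ov4Carbo (median -0.55), 6 rose and 8 fell in Ov4Carbo4 (median 0.05), and 7 rose and 10 fell in Ov4Carbo7 (median -0.57). The shares of all genes called higher and lower were 8.46% and 7.41% in Ov4Cis, and 5.76% and 6.93% in Ov4Carbo. They were 7.43% and 7.7% in Ov4Carbo4, and 9.26% and 7.75% in Ov4Carbo7. The median over all genes was 0.02 to 0.07. SPARC, a secreted matrix protein, rose in all 4 lines, from 1.95, 1.46 and 0.51 in the parental samples by 5.73, 4.49, 5.61 and 3.74 in Ov4Cis, Ov4Carbo, Ov4Carbo4 and Ov4Carbo7. CDH2, which encodes N-cadherin, rose by 2.86 in Ov4Cis, 1.02 in Ov4Carbo4 and 1.46 in Ov4Carbo7. On the log2(RPKM + 1) scale the CDH2 difference in Ov4Carbo4 was 0.94, under the fold limit. VIM, which encodes vimentin, was already at 7.68, 8.14 and 8.24 in the parental line and was not called in any line (differences of -0.25 to 0.74). FN1, which encodes fibronectin, fell by 3.03 in Ov4Carbo and by 6.92 in Ov4Carbo4 and was not called in Ov4Cis or Ov4Carbo7. The contractile gene TAGLN fell in all 4 lines (-6.73, -4.89, -4.25 and -5.42 in the same order), as did the collagen gene COL1A2 (-4.24, -5.18, -5.80 and -4.95). The integrin gene ITGA5 rose in all 4 lines, by 2.06, 1.16, 1.59 and 1.74 in the same order. The collagen gene COL5A1 rose by 1.83 in Ov4Carbo4 and fell by 1.21 in Ov4Cis and 3.99 in Ov4Carbo7, and LOX, which crosslinks collagen, rose by 1.81 in Ov4Carbo7 and fell by 2.09 in Ov4Carbo4.

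Among 24 related transcription factors, 15 were measured, with 2 rises and 5 falls in Ov4Cis, 2 and 3 in Ov4Carbo7, 1 and 4 in Ov4Carbo, and 2 and 3 in Ov4Carbo4. The shares of all genes called were 15.9% in Ov4Cis, 17.0% in Ov4Carbo7, 12.7% in Ov4Carbo and 15.1% in Ov4Carbo4. These shares also stand beside the count of corepressors below. The epithelial factor ELF3 fell by 2.33 in Ov4Cis, from 4.58 to 2.25, and by 1.18 in Ov4Carbo7. SOX9 fell by 2.10 in Ov4Cis, 1.17 in Ov4Carbo and 2.72 in Ov4Carbo7. FOXC1 fell by 1.78 in Ov4Carbo4. TCF12, a helix-loop-helix partner of TWIST1, rose by 1.11 in Ov4Cis and 1.15 in Ov4Carbo4. The 13 corepressors and partners through which ZEB and SNAIL proteins act, such as CTBP1, KDM1A and HDAC1, were all measured, and 1 call was made in the 4 lines: RCOR1, a component of the CoREST complex, fell by 1.01 in Ov4Carbo7. Close to the fold limit without reaching it were EZH2 in Ov4Carbo7 (-0.99, adjusted p = 3.4e-05), HDAC2 in Ov4Carbo4 (-0.92, 8.69e-06) and RCOR1 in Ov4Carbo (-0.85, 0.000172).

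Markers of other cell types were read beside these results. Of 5 fibroblast markers LUM was measured, at -6.02 to -1.73 in line mean, and of 6 leukocyte markers 2 were, with CD14 at -1.34 to 0.58. Of 4 endothelial markers 3 were measured: VWF and KDR were below 0 in every line, and CDH5 was at 2.46 in the parental line, 5.13 in Ov4Cis, 3.08 in Ov4Carbo7, 2.15 in Ov4Carbo and 4.42 in Ov4Carbo4, so that the summed level of the list was 32.3 to 40.9 RPKM in Ov4Cis against 6.37 to 7.40 in the parental line. Of 4 mesothelial markers UPK3B and LRRN4 were measured, with UPK3B at 3.69 to 6.27 and highest in the parental line. The part of these genes in the results was not tested.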

How the data were processed

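RNA from cultured cells was purified with a column kit and polyA-selected for sequencing, per the labels' protocols. What the authors deposited is 1 table of log2 RPKM; its name records that conditional quantile normalization, which corrects for gene length and GC content, was applied, and mentions a threshold without its rule. BWA 0.7.15-r1140, HTSeq, GRCh37 and hg19 are named per the submitters' processing notes, with no role or order. Strand of counting and depth are not given in the sources used here, so no counting error can be attached to low values, and values far below 0 may rest on few reads.

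Identifiers were matched to symbols with GENCODE v29 (16448 of 16604). All 15 samples were fitted in limma 3.58.1 (R 4.3.3; 1 coefficient per line, two-sided, default eBayes), with 10 contrasts and Benjamini-Hochberg adjustment over all genes in each. The fitting code was tested on simulated data. Groups came from the labels, which describe the replicates as biological. A p-value sets the difference between 2 lines against the spread of replicates within lines, pooled over the 5 lines. That spread can be uneven: for GRHL2 the SD was 0.02 in the parental line and 2.01 in Ov4Carbo.

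The members and lists were chosen with earlier results of these data known. Named beyond the members are CDH1, EPCAM, ESRP1, ESRP2, VIM, CDH2, FN1 and SPARC and, per list and line, up to 2 called genes in each direction with the greatest change, no overlap with the parental values and a higher line mean of at least 1; TWIST2, AP1M2, MYO5B, CRB3, CLDN7, EZH2, HDAC2 and the genes overlapping members were added after their values were seen. A few genes that this rule names are not reported here. Alternatives were a variance trend, further quantile normalization, median centring, a filter at a mean of 1, log2(RPKM + 1), only the lines compared, a replicate block, a title series term, an adjusted p under 0.01, and leaving out each sample.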

Additional observations from a re-analysis of the deposited data

Results flagged for a closer look

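Results are listed here where 2 comparable lines departed from the parental line by different amounts, tested directly as the limma contrast between the lines. For the 2 populations selected with different drugs, the difference (Ov4Cis minus Ov4Carbo, log2) was 1.40 for ZEB1, 1.31 for TWIST1, -1.05 for GRHL1, -3.45 for GRHL2, -2.66 for OVOL1 and -2.92 for OVOL2. GRHL2 rests on an Ov4Carbo spread of 2.01 (SD), and without Ov4Carbo replicate 1 its difference was -4.61.

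Between the 2 single-cell lines, the difference (Ov4Carbo7 minus Ov4Carbo4, log2) was -2.07 for GRHL1, -6.05 for GRHL2, -2.18 for OVOL1 and -2.03 for OVOL2. GRHL1 and OVOL2 in Ov4Carbo4 differed from the parental line by 0.02 and -0.30, neither past the threshold, while in Ov4Carbo7 both fell. Each of these lines is 1 clone, so the differences describe those clones.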

How the results depend on the processing

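Across the 10 comparisons of the 7 members, settings other than leaving out a sample kept direction and call 530 times, lost a call 40 times, gained one 2 times and turned direction 8 times; leaving out 1 sample kept both 1030 times, lost a call 10 times and turned direction 10 times. The filter at a mean of 1 keeps only ZEB1 and SNAI1 of the members, so the members called fell by construction to 1 in Ov4Cis and Ov4Carbo7 against the parental line, in Ov4Carbo7 and Ov4Cis against Ov4Carbo, and in Ov4Cis against Ov4Carbo4, and to 0 in the other 5 comparisons.

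On the log2(RPKM + 1) scale, members called were 2 in Ov4Carbo against the parental line, 0 in Ov4Carbo4 and Ov4Carbo7 against Ov4Carbo, 0 in Ov4Carbo7 against Ov4Carbo4, 1, 2 and 0 in Ov4Cis against Ov4Carbo, Ov4Carbo4 and Ov4Carbo7. For those with 0, the differences had adjusted p-values down to 3.61e-07 (OVOL2, Ov4Carbo7 against Ov4Carbo4), and the fold limit was what they missed or, for OVOL1, both criteria. Quantile normalization again gave 2 members in Ov4Cis against Ov4Carbo7. The title series term gave 2 in Ov4Carbo7 against Ov4Carbo and 3 in Ov4Cis against Ov4Carbo7. Leaving out 1 sample gave 1 to 3 members in Ov4Carbo4 against Ov4Carbo (the lowest without Ov4Carbo4 replicate 1) and 3 to 5 in Ov4Carbo7 against Ov4Carbo (the lowest without Ov4Carbo replicate 3).

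Directions that turned with the title series term were those of ZEB1 in Ov4Carbo4 against the parental line (-0.11) and against Ov4Carbo (-0.19), SNAI1 (0.18) and GRHL1 (0.06) in Ov4Carbo7 against Ov4Carbo, TWIST1 (0.05) and GRHL2 (-3.04) in Ov4Cis against Ov4Carbo7, OVOL1 in Ov4Carbo4 against Ov4Carbo (1.14), and OVOL2 in Ov4Carbo4 against the parental line (0.04). All 8 were uncalled before the term, and GRHL2 was called with it. With single samples left out, uncalled differences ranged from -0.06 to 0.26 for SNAI1 in Ov4Cis against the parental line, -0.20 to 0.07 for SNAI1 in Ov4Carbo7 against Ov4Carbo, -0.15 to 0.06 for TWIST1 in Ov4Cis against Ov4Carbo7, -0.17 to 0.26 for GRHL1 in Ov4Carbo4 against the parental line, and -0.62 to 0.56 for OVOL1 in Ov4Carbo4 against Ov4Carbo. The cause was not tested.

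Over the whole table, genes called against the parental line in Ov4Cis, Ov4Carbo, Ov4Carbo4 and Ov4Carbo7 numbered 2635, 2106, 2513 and 2824, with 1258, 790, 1053 and 1294 on the log2(RPKM + 1) scale and 988, 730, 971 and 1134 after the filter. Ov4Carbo4 and Ov4Carbo7 against Ov4Carbo, and Ov4Carbo7 against Ov4Carbo4, gave 2360, 2214 and 3478, with 905, 823 and 1746 on that scale and 996, 851 and 1645 after the filter. Ov4Cis against Ov4Carbo, Ov4Carbo4 and Ov4Carbo7 gave 2288, 2797 and 2434, with 958, 1277 and 1104 on that scale and 840, 1196 and 1041 after the filter.

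Of the lists, related transcription factors called in Ov4Cis, Ov4Carbo, Ov4Carbo4 and Ov4Carbo7 went from 7, 5, 5 and 5 to 4, 0, 2 and 2 on the log2(RPKM + 1) scale and to 3, 0, 2 and 1 after the filter. The 1 corepressor called in Ov4Carbo7 went to 0 on that scale and with the title series term, and ranged from 0 to 2 with single samples left out. Mesenchymal genes called went from 14 to 9 in Ov4Cis and from 12 to 6 in Ov4Carbo after the filter, and from 17 to 10 in Ov4Carbo7 with the title series term.

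Deviations from the line means had correlations of -0.394 to 0.437 over 30 pairs of same-numbered replicates (median -0.0218). Over 60 pairs with other numbers they were -0.385 to 0.479 (median 0.0184). Same-numbered replicates were no more alike than the others, so the numbers were not taken as pairs. With the replicate block the members called stayed at 6, 5, 3 and 6 in the 4 lines against the parental line, and genes called were 2582, 2042, 2468 and 2780.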
